A study of Mus musculus with 24 samples.

Results

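Polycomb and Trithorax genes were followed in P19 cells, a mouse embryonal carcinoma line, as the cells were treated with retinoids. The 38 genes were named by symbol, and each was read from the probe set that carries that symbol alone, or the brightest of them where there were several. Of the 38, 37 could be read this way, among 19938 genes on the array. The exception was Cbx6, whose probe set carries 3 symbols. Cells grew as a monolayer on gelatine, and their RNA was hybridised to 24 Mouse Gene 1.0 ST arrays from Affymetrix. The control was ethanol (EtOH), read on 4 arrays without a stated time. The other 20 arrays hold 4 agents at 2, 6, 24, 48 and 72 h, with 1 array per agent and time. ATRA, all-trans retinoic acid, was given at 1 µM, and so was BMS753, which activates retinoic acid receptor (RAR) α. BMS641, for RARβ, and BMS961, for RARγ, were given at 0.1 µM. All groups are the same line in the same medium, so no group differs in genotype. The labels do not say whether arrays came from separate cultures, so p-values rest on the spread between these arrays, which may be technical. With 1 array per agent and time, that spread also holds differences between the time courses of the agents.

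Polycomb proteins keep developmental genes silent, and Trithorax proteins keep them active. Polycomb repressive complex 2 (PRC2) methylates histone H3 at lysine 27 through Ezh1 or Ezh2, and PRC1 ubiquitinates histone H2A through Ring1 or Rnf2. Canonical PRC1 is brought to methylated H3 by a CBX subunit and compacts chromatin through PHC subunits, whereas variant PRC1 carries Rybp or Yaf2 in place of CBX. Most subunits come as paralogues that take turns in the same place of a complex. In pluripotent cells Cbx7 is known as the main CBX subunit, and other CBX paralogues take over as cells differentiate. Hox clusters, which retinoic acid activates, are classic Polycomb targets.

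Promoters are shown for 5 members, because some paralogues of the same complex went opposite ways under ATRA. Cbx7, Phc1 and Ezh1 were lower late in the course, and Cbx8 and Ezh2 were higher. Each run holds the 250 bases before and 50 bases after a start site in RefSeq, build GRCm38.p6, written 5′ to 3′ on the strand of the gene, and all 5 genes lie on the minus strand. The windows are chr15:79932597-79932896 for Cbx7, chr11:119040864-119041163 for Cbx8, chr6:122340178-122340477 for Phc1, chr11:101226414-101226713 for Ezh1 and chr6:47594981-47595280 for Ezh2. Capitals mark a GC box (GGGCGG) in Cbx7, an E-box (CACGTG), a GC box and a CRE (TGACGTCA) in Cbx8, and an E2F site (TTTGGCGC) in Ezh2.
Cbx7: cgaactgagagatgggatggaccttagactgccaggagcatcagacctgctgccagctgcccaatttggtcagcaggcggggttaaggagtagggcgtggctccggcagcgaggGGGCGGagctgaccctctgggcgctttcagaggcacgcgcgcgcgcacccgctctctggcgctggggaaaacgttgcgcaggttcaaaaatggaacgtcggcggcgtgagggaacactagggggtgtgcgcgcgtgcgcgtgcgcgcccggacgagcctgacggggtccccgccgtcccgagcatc
Cbx8: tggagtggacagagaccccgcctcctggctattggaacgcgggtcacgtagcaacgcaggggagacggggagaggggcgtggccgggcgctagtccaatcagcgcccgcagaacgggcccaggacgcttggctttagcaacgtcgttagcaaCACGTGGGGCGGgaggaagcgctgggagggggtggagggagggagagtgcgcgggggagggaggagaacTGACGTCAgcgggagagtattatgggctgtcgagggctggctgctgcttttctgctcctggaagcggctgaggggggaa
Phc1: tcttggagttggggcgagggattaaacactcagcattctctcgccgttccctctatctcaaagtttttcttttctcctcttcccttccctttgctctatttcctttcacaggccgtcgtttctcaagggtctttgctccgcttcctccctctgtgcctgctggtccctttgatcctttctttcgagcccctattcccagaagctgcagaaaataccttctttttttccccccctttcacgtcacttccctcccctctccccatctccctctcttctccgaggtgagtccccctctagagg
Ezh1: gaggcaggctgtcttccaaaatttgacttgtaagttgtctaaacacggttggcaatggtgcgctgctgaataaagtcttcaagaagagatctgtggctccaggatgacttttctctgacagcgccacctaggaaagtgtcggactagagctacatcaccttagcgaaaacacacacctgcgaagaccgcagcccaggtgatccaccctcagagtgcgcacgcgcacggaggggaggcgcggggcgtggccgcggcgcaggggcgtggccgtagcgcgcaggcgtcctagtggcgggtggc
Ezh2: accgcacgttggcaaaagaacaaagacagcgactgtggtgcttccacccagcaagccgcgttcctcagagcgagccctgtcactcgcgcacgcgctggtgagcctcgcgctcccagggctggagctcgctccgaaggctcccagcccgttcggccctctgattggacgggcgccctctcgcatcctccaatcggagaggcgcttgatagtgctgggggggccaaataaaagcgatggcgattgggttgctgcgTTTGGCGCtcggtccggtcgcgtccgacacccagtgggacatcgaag

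The same letters were searched on both strands in the 43 RefSeq promoters of the 31 members that have one, and in all 32851 promoters of that length. Asxl3, Cbx2, Kdm6b, Kmt2b, Pcgf1, Rybp and Yaf2 had no entry. The GC box was in 32 of 43 member promoters (74.4%) and 35.7% of all promoters, and the E-box in 10 of 43 (23.3%) and 7.15%. The CRE was in 1 (2.33%, all promoters 1.79%), the E2F letters TTTGGCGC in 1 (2.33%, all 0.514%) and TTTCCCGC in 2, those of Suz12 and Phf19 (4.65%, all 1.07%), and the octamer ATGCAAAT in 1, of Phc2 (2.33%, all 1.74%). The retinoic acid receptor half-sites AGGTCA and AGTTCA were in 5 and 4 member promoters (11.6% and 9.3%, all 16.3% and 14%). A direct repeat of any pair of these half-sites, 1, 2 or 5 bases apart, was in 0 of 43 (all 0.161%). Neighbouring GC boxes overlap in some promoters, and a half-site shares bases with an E-box in Pcgf2, Phc3 and Kdm6a. Member promoters held a median of 24 CpG pairs and all promoters 7. Among the printed 5, the Phc1 window had 9 CpG pairs, and the others 33 (Cbx7), 24 (Cbx8), 23 (Ezh1) and 31 (Ezh2). These matches describe the windows only.

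The arrays had medians between 6.502 and 6.677 on the log2 scale, pairs of EtOH arrays differed by an SD of 0.0941 to 0.143 across genes, and no pair of arrays was identical. The number of arrays limits the precision. P19 cells in EtOH gave 12.90 for Pou5f1 (Oct4), 11.53 for Sox2, 8.86 for Nanog and 4.83 for Zfp42, and the Zfp42 (Rex1) reading lay below the median of every array. Of 10 pluripotency markers, 8 fell and 0 rose after 24 to 72 h of ATRA, and their mean ran from −3.37 to −0.55 relative to EtOH. Pou5f1 fell by 4.07 ± 0.81, Nanog fell by 2.15 ± 0.51, and Sox2 stood at −0.34 ± 0.19 and was not called. Tdgf1 (−4.87 ± 0.82) and Utf1 (−4.16 ± 0.67) fell most. With BMS753, 3 of the 10 fell and 0 rose, and their mean ran from −1.97 to 0.07. Of 8 neural progenitor markers 3 rose with ATRA (Pax6 by 4.01 ± 0.36, Irx3 by 2.08 ± 0.42) and 5 with BMS753. Of 8 neuron markers 3 rose with ATRA (Dcx by 2.71 ± 0.50, Gap43 by 2.23 ± 0.24) and 1 with BMS753. Of 8 endoderm markers 5 rose with ATRA (Gata6 by 3.02 ± 0.27, Dab2 by 1.62 ± 0.26) and 2 with BMS753. In these lists 0 falls were called. Of the neuron markers 4 lay below EtOH and 4 above it with ATRA (lowest −0.48), and 5 below and 3 above with BMS753 (lowest −0.80). With ATRA 37.5% of the neural progenitor and of the neuron markers were called, near the 36.9% of all genes. With BMS753 it was 62.5% and 12.5%, where 13.5% of all genes were called. Of 7 mesoderm markers 3 rose and 2 fell with ATRA (Eomes −2.30 ± 0.32, Meox1 2.14 ± 0.40), and 1 and 1 with BMS753. Of 8 fibroblast and smooth muscle markers 6 rose and 1 fell with ATRA (Dcn 1.86 ± 0.54, Tagln 1.82 ± 0.39), and 0 and 1 with BMS753. In the late ATRA arrays the list means ran from 0.69 to 1.57 (neural progenitor), −0.009 to 1.68 (neuron) and 0.48 to 1.39 (endoderm). They ran from 0.06 to 0.45 for mesoderm and −0.03 to 1.90 for fibroblast and smooth muscle. In the late BMS753 arrays they reached 1.83, 0.12, 0.86, 0.21 and 0.78, in the same order. Of the cell cycle list, 15 genes long, ATRA raised 4 and lowered 4 (Mcm3 −0.42 ± 0.08, Ccne1 −0.41 ± 0.05), and 0 and 1 with BMS753. Where these lists moved, the members moved in the same arrays, and the part of the lists in the changes below was not tested. In RNA from whole cultures, fewer cells of a type and less RNA per cell cannot be told apart.

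After 24 to 72 h of ATRA, some paralogues of the same Polycomb complexes stood on opposite sides of EtOH and others on the same side. Cbx7, Phc1, Ezh1 and Phf19 were lower than in EtOH, and Cbx2, Cbx8, Phc2, Phc3, Ezh2, Yaf2 and Asxl3 were higher. Cbx2 went the same way as Cbx8, Phc2 as Phc3, and Asxl1 as Asxl2, while Rybp, the paralogue of Yaf2, was not called. Late values are the mean of the 24, 48 and 72 h arrays (n = 3) against the 4 EtOH arrays on the log2 scale, with the standard error (SE) of a limma fit over all genes, and a call means a p under 0.05 after Benjamini-Hochberg adjustment over all 19938 genes. Of 37 members, 14 rose and 11 fell with ATRA, which is 67.6% against 36.9% of all genes. Of all genes 17.9% rose and 19% fell, and whether paralogues part more often than other genes was not tested. The members were chosen with earlier results of these data known, so their share is not independent of these data. With BMS753, 10 rose and 6 fell, 43.2% against 13.5% of all genes. The members are not dim: all 37 were among the 13292 genes left when the dimmest were dropped. In that set 27 of 37 were called with ATRA against 51.5% of genes, and 19 of 37 with BMS753 against 21.5%. The median absolute change of the members was 0.33 with ATRA and 0.21 with BMS753, where that of all genes was 0.14 and 0.08. The median signed change was 0.07 and 0.05 for the members, and 0.03 and −0.01 for all genes. In 11 members all 3 late ATRA arrays lay above the range of the EtOH arrays and in 9 below it, 54.1% of members and 31.3% of all genes. With BMS753 there were 11 above and 4 below, 40.5% of members and 20.3% of all genes. All comparisons with EtOH share its 4 arrays. Fitted on only the arrays of the groups compared, with no time term, the counts were 10 members with ATRA (all genes 11.4%) and 1 with BMS753, Yaf2 (all genes 1.5%). In that fit Cbx7, Cbx2, Cbx8, Phc3, Ezh1, Eed, Rbbp7, Jarid2, Mtf2, Phf1, Ring1, Pcgf5, Bmi1, Asxl2 and Kdm6a lost their ATRA call, with adjusted p from 0.0528 to 0.221. The changes themselves are the same in both fits, so their directions could not differ. With a change of at least 1.5-fold required the counts were 11 (all genes 11%) and 5 (all genes 4.59%). When each EtOH array, or the 4 arrays of each time, were left out in turn, the count of called members ran from 19 to 30 with ATRA. With BMS753 it was 4 without 48 h or 72 h, 24 without 24 h, 9 without those of 2 h or of 6 h, and 10 without EtOH array 1, 3 or 4.

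**Figure D1:**
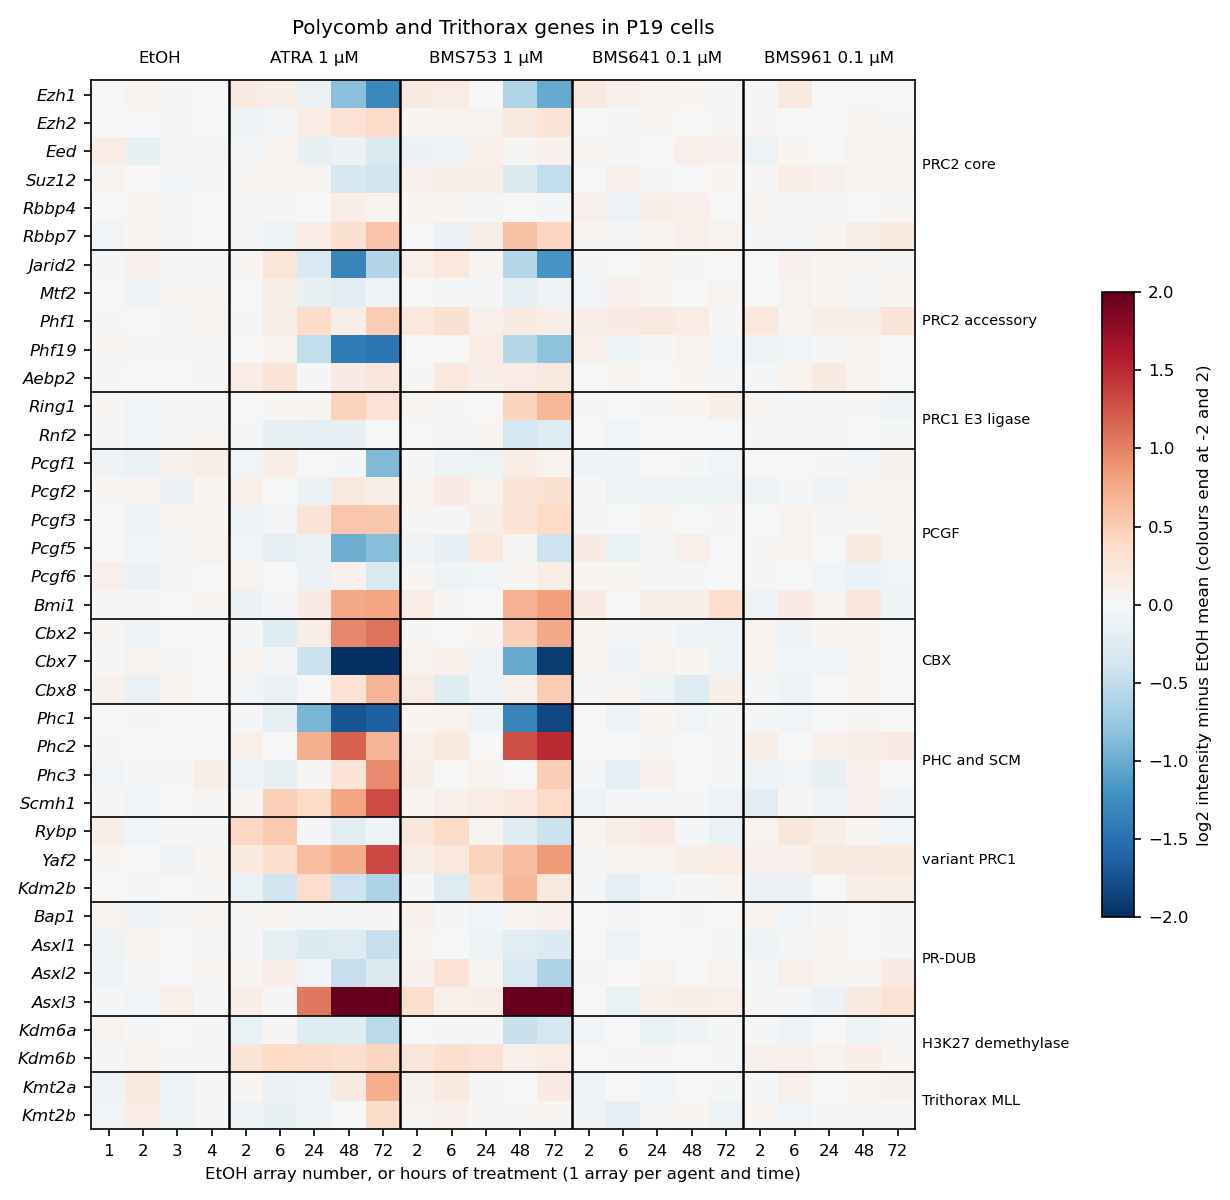
Log2 intensity of the 37 members minus the EtOH mean, by role, with 1 column per array. Rows are genes and columns the 4 EtOH arrays and the hours of each agent. Colour sits in the 24 to 72 h columns of ATRA and the 48 and 72 h columns of BMS753, while the BMS641 and BMS961 columns are close to the EtOH columns.

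**Figure D2:**
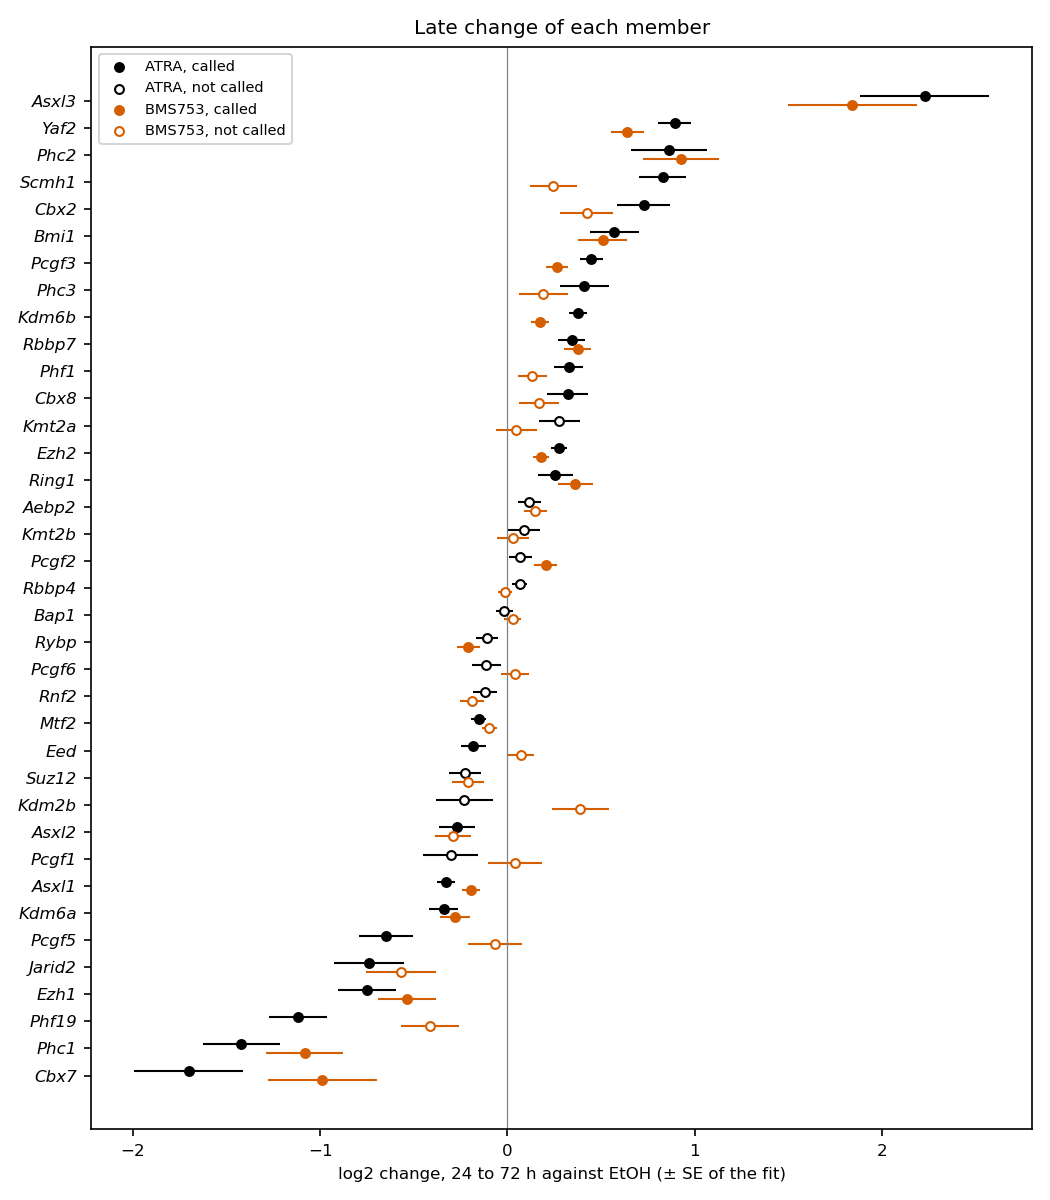
Late log2 change of each member against EtOH (x axis, ± SE of the fit) for ATRA and BMS753, with filled points where the adjusted p was under 0.05. Asxl3 stands highest at 2.23 with ATRA and Cbx7 lowest at −1.70.

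Among the CBX subunits, which read methylated H3, Cbx7 fell and Cbx2 and Cbx8 rose with ATRA. Cbx7 read 9.95, 10.05, 9.97 and 9.98 on the log2 scale in the 4 EtOH arrays, 10.05, 9.96, 9.56, 7.93 and 7.36 at 2, 6, 24, 48 and 72 h of ATRA, and 10.06, 10.09, 9.92, 8.98 and 8.09 at those times of BMS753. The ATRA readings at 2 and 6 h lay within the EtOH range and those of BMS753 just above it, and from 24 h on both courses lay below every EtOH array, lowest at 72 h. Cbx7 fell by 1.70 ± 0.29 late with ATRA (3.25-fold lower, adjusted p = 0.000399) and fell by 0.99 ± 0.29 with BMS753 (adjusted p = 0.0347). Cbx2, which also compacts chromatin, rose by 0.73 ± 0.14 with ATRA (adjusted p = 0.00112) and stood at 0.42 ± 0.14 with BMS753 (adjusted p = 0.0633). Cbx8, its neighbour on the chromosome, rose by 0.32 ± 0.11 with ATRA and stood at 0.17 ± 0.11 with BMS753. Both were highest at 72 h in either course. Cbx8 lost its ATRA call without EtOH array 2 or 4 and without the 48 or 72 h arrays (adjusted p up to 0.334). Cbx7 lost its BMS753 call without any single EtOH array and without the 2, 6, 48 or 72 h arrays (adjusted p up to 0.241).

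The PHC subunits, which join PRC1 complexes through their SAM domains, also parted. Phc1 read 11.69, 11.72, 11.68 and 11.68 on the log2 scale in the 4 EtOH arrays, 11.66, 11.52, 10.78, 9.97 and 10.06 at 2, 6, 24, 48 and 72 h of ATRA, and 11.74, 11.76, 11.59, 10.37 and 9.87 at those times of BMS753. All late ATRA arrays lay below all EtOH arrays, and with BMS753 the large fall came between 24 and 48 h. Phc1 fell by 1.42 ± 0.21 with ATRA (2.68-fold, adjusted p = 0.000117) and fell by 1.08 ± 0.21 with BMS753 (2.12-fold, adjusted p = 0.00311). Phc2 read 8.59, 8.55, 8.56 and 8.56 on the log2 scale in the 4 EtOH arrays, 8.66, 8.55, 9.29, 9.74 and 9.25 at 2, 6, 24, 48 and 72 h of ATRA, and 8.67, 8.76, 8.56, 9.86 and 10.05 at those times of BMS753. Phc2 was above the EtOH range at all 3 late ATRA times and at 48 and 72 h of BMS753, with the 24 h BMS753 array at the EtOH level. It rose by 0.86 ± 0.20 with ATRA (adjusted p = 0.00379) and by 0.93 ± 0.20 with BMS753 (adjusted p = 0.00747). Phc3 rose by 0.41 ± 0.13 with ATRA and stood at 0.19 ± 0.13 with BMS753, and its second probe set gave 0.52 with ATRA. Scmh1 read 8.52, 8.44, 8.49 and 8.52 on the log2 scale in the 4 EtOH arrays, 8.55, 8.96, 8.89, 9.28 and 9.80 at 2, 6, 24, 48 and 72 h of ATRA, and 8.54, 8.60, 8.64, 8.71 and 8.87 at those times of BMS753. Scmh1, a relative of the Sex comb on midleg protein that binds PHC subunits, was above the EtOH range at all 5 times of both agents, further with ATRA from 6 h on. It rose by 0.83 ± 0.12 with ATRA (1.78-fold, adjusted p = 0.000157) and stood at 0.25 ± 0.12 with BMS753 (adjusted p = 0.228). Phc3 lost its ATRA call without EtOH array 1 and without the 2, 6 or 72 h arrays (adjusted p up to 0.233). Phc2 lost its BMS753 call without the 48 or 72 h arrays (adjusted p up to 0.0882).

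**Figure D3:**
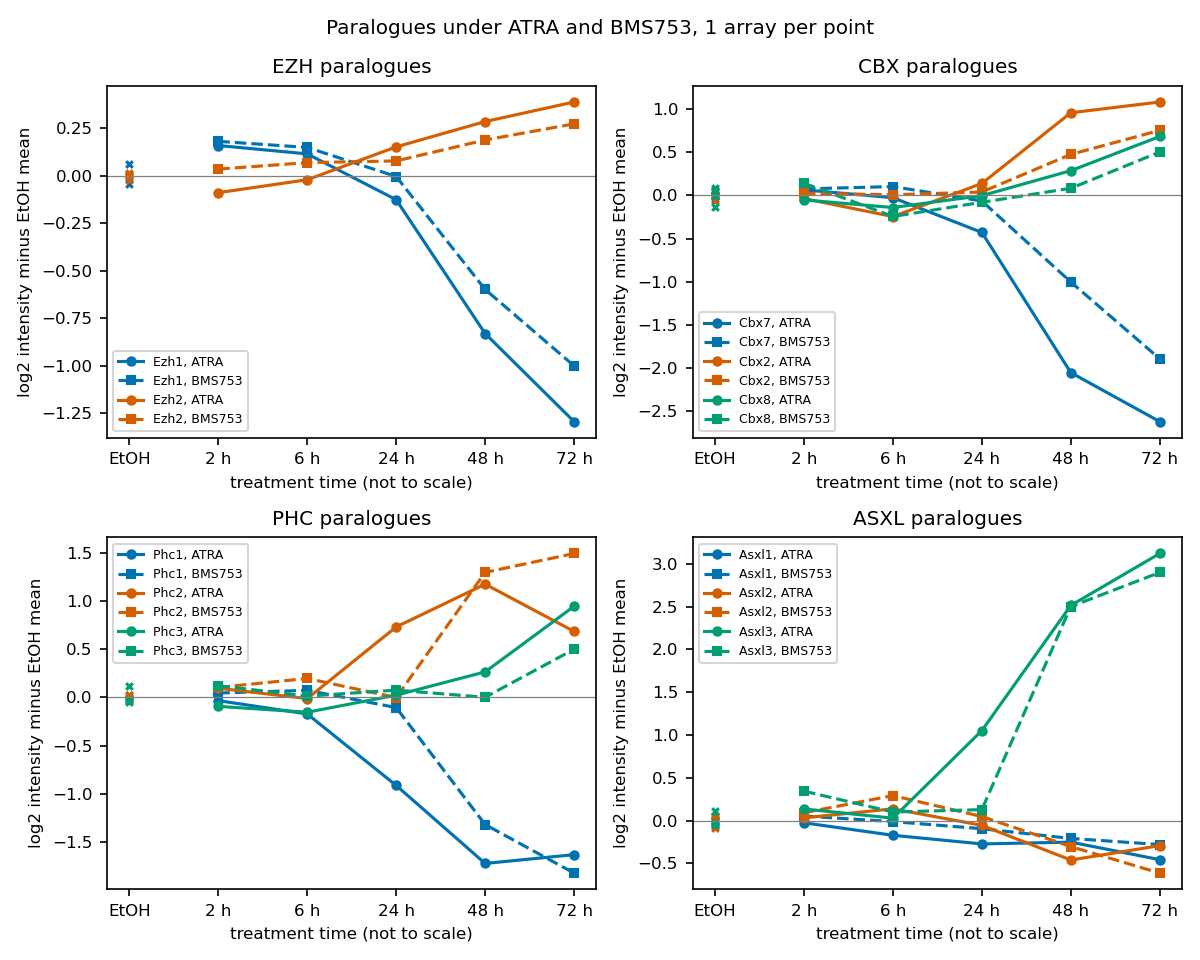
Log2 intensity minus the EtOH mean (y axis) at each treatment time (x axis, not to scale) for the EZH, CBX, PHC and ASXL paralogues, with solid lines for ATRA, dashed lines for BMS753 and crosses for the 4 EtOH arrays. Each point is 1 array. At 48 and 72 h Ezh1, Cbx7 and Phc1 lie below the EtOH mean and Ezh2, Cbx2 and Phc2 above it in both courses. With ATRA, Phc2 is higher at 48 h (1.17) than at 72 h (0.68), and Phc1 is lowest at 48 h (−1.72).

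Of the ubiquitin ligases of PRC1, Ring1 rose by 0.26 ± 0.09 with ATRA (adjusted p = 0.0445) and by 0.36 ± 0.09 with BMS753 (adjusted p = 0.0187), and Rnf2, the main ligase of embryonic cells, stood at −0.12 ± 0.06 and −0.19 ± 0.06 and was not called. Ring1 lost its ATRA call without any single EtOH array and without the 2, 6, 48 or 72 h arrays (adjusted p up to 0.298). Ring1 lost its BMS753 call without the 2, 6, 48 or 72 h arrays (adjusted p up to 0.165). Of the 6 PCGF subunits, which fix the kind of PRC1, 2 rose and 1 fell with ATRA, and 3 rose with BMS753. That is 50% with either agent, where 36.9% of all genes were called with ATRA and 13.5% with BMS753. Bmi1 read 7.18, 7.18, 7.21 and 7.27 on the log2 scale in the 4 EtOH arrays, 7.09, 7.18, 7.38, 7.97 and 8.002 at 2, 6, 24, 48 and 72 h of ATRA, and 7.36, 7.24, 7.22, 7.91 and 8.03 at those times of BMS753. Bmi1, a PCGF subunit of canonical PRC1, was above the EtOH range at 48 and 72 h with both agents. It rose by 0.57 ± 0.13 with ATRA (adjusted p = 0.00314) and by 0.51 ± 0.13 with BMS753 (adjusted p = 0.0178). Pcgf5 read 8.18, 8.11, 8.13 and 8.24 on the log2 scale in the 4 EtOH arrays, 8.11, 7.97, 8.05, 7.18 and 7.32 at 2, 6, 24, 48 and 72 h of ATRA, and 8.10, 8.0, 8.37, 8.19 and 7.75 at those times of BMS753. Pcgf5, of variant PRC1, lay below the EtOH range from 6 h of ATRA on and lowest at 48 and 72 h, while its BMS753 arrays lay on both sides of it. It fell by 0.65 ± 0.14 with ATRA (adjusted p = 0.00248) and stood at −0.06 ± 0.14 with BMS753. Its paralogue Pcgf3 rose by 0.45 ± 0.06 with ATRA and by 0.26 ± 0.06 with BMS753. Pcgf2, the other canonical subunit, rose by 0.20 ± 0.06 with BMS753 and stood at 0.07 ± 0.06 with ATRA. Pcgf1 (−0.30 ± 0.15 and 0.04 ± 0.15) and Pcgf6 (−0.11 ± 0.08 and 0.04 ± 0.08) were not called with either agent. The ATRA value of Pcgf1 rests on the 72 h array, which stood at −0.88 against EtOH where the 48 h array stood at −0.029. Bmi1 and Pcgf3 lost their BMS753 call without the 48 or 72 h arrays (adjusted p up to 0.133). Pcgf2 lost its BMS753 call without any single EtOH array and without the 2, 6, 48 or 72 h arrays (adjusted p up to 0.227).

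Of the 3 variant PRC1 genes, Rybp rose early and Yaf2 rose late with ATRA. Rybp read 11.51, 11.34, 11.36 and 11.38 on the log2 scale in the 4 EtOH arrays, 11.81, 11.91, 11.38, 11.17 and 11.31 at 2, 6, 24, 48 and 72 h of ATRA, and 11.63, 11.77, 11.45, 11.15 and 10.96 at those times of BMS753. Rybp, which docks on Ring1 or Rnf2, was above every EtOH array at 2 and 6 h of both agents, and was back among or below them from 24 h on. Early values are the mean of the 2 and 6 h arrays (n = 2). Rybp rose early by 0.47 ± 0.07 with ATRA (1.38-fold, adjusted p = 0.00221) and stood at 0.30 ± 0.07 with BMS753 (adjusted p = 0.0901). Late it stood at −0.11 ± 0.06 with ATRA and fell by 0.21 ± 0.06 with BMS753 (adjusted p = 0.032). Its other, dimmer probe set stood at 0.09 late with ATRA and at −0.0019 with BMS753, so the probe sets disagree in sign under ATRA. Yaf2 read 9.99, 9.94, 9.88 and 9.98 on the log2 scale in the 4 EtOH arrays, 10.15, 10.27, 10.57, 10.69 and 11.26 at 2, 6, 24, 48 and 72 h of ATRA, and 10.07, 10.16, 10.40, 10.56 and 10.80 at those times of BMS753. Yaf2, the paralogue of Rybp, was above the EtOH range at every time of both agents and highest at 72 h. It rose late by 0.89 ± 0.09 with ATRA (1.86-fold, adjusted p = 6.44e-06) and by 0.64 ± 0.09 with BMS753 (1.56-fold, adjusted p = 0.000353), and its early values were 0.27 ± 0.10 and 0.17 ± 0.10, not called. Kdm2b read 9.73, 9.69, 9.74 and 9.75 on the log2 scale in the 4 EtOH arrays, 9.59, 9.34, 10.07, 9.31 and 9.11 at 2, 6, 24, 48 and 72 h of ATRA, and 9.70, 9.46, 10.05, 10.38 and 9.92 at those times of BMS753. Kdm2b, which brings variant PRC1 to unmethylated CpG islands, was lower than EtOH at 6 h and higher at 24 h with both agents, and at 48 and 72 h it was below the EtOH range with ATRA and above it with BMS753. Its late values were −0.23 ± 0.15 with ATRA and 0.39 ± 0.15 with BMS753, neither called. Rybp lost its early ATRA call without the 6 h arrays (adjusted p up to 0.381). Rybp lost its BMS753 call without EtOH array 1, 3 or 4 and without the 2, 6, 48 or 72 h arrays (adjusted p up to 0.313).

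In the PRC2 core, Ezh1 fell and Ezh2 rose. Ezh1 read 9.16, 9.23, 9.12 and 9.16 on the log2 scale in the 4 EtOH arrays, 9.33, 9.28, 9.04, 8.34 and 7.88 at 2, 6, 24, 48 and 72 h of ATRA, and 9.35, 9.32, 9.16, 8.57 and 8.17 at those times of BMS753. Ezh1, the methyltransferase known from resting cells, lay a little above EtOH at 2 and 6 h and below every EtOH array at 48 and 72 h with both agents. It fell by 0.75 ± 0.15 with ATRA (1.68-fold, adjusted p = 0.00147) and fell by 0.54 ± 0.15 with BMS753 (adjusted p = 0.0304). Ezh2, the methyltransferase of dividing cells, rose by 0.27 ± 0.04 with ATRA (adjusted p = 0.000189) and by 0.18 ± 0.04 with BMS753 (adjusted p = 0.0116), and its late arrays were all above the EtOH range of 11.70 to 11.74. Rbbp7, a histone chaperone of several complexes, rose by 0.34 ± 0.07 with ATRA and by 0.38 ± 0.07 with BMS753, with 0.32 and 0.33 at its second probe set, and its paralogue Rbbp4 stood at 0.07 ± 0.04 and −0.01 ± 0.04, not called. Eed, which reads methylated H3, fell by 0.18 ± 0.07 with ATRA (adjusted p = 0.045) and stood at 0.07 ± 0.07 with BMS753, and its dim second probe set stood at 0.0094 with ATRA. Suz12, the scaffold, stood at −0.23 ± 0.09 (adjusted p = 0.0519) and −0.21 ± 0.09, not called, with 48 and 72 h readings below the EtOH range in both courses. Eed lost its ATRA call without EtOH array 1, 3 or 4 and without the 2, 6, 48 or 72 h arrays (adjusted p up to 0.223). Ezh1 lost its BMS753 call without any single EtOH array and without the 2, 6, 48 or 72 h arrays (adjusted p up to 0.183). Ezh2 lost its BMS753 call without the 48 or 72 h arrays (adjusted p up to 0.0743).

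Of the 5 accessory subunits of PRC2, 3 fell and 1 rose with ATRA, where 19% of all genes fell and 17.9% rose. Phf19 read 7.96, 7.88, 7.93 and 7.87 on the log2 scale in the 4 EtOH arrays, 7.89, 7.98, 7.41, 6.50 and 6.46 at 2, 6, 24, 48 and 72 h of ATRA, and 7.90, 7.91, 8.05, 7.34 and 7.10 at those times of BMS753. Phf19, a Polycomb-like protein that helps PRC2 find CpG islands, was below every EtOH array from 24 h of ATRA on, and with BMS753 only at 48 and 72 h. It fell by 1.12 ± 0.15 with ATRA (2.17-fold, adjusted p = 8e-05) and stood at −0.41 ± 0.15 with BMS753 (adjusted p = 0.0934). Its relative Mtf2 fell by 0.15 ± 0.04 with ATRA and stood at −0.10 ± 0.04 with BMS753. Phf1 read 7.10, 7.12, 7.10 and 7.17 on the log2 scale in the 4 EtOH arrays, 7.10, 7.24, 7.49, 7.24 and 7.62 at 2, 6, 24, 48 and 72 h of ATRA, and 7.33, 7.42, 7.22, 7.29 and 7.26 at those times of BMS753. Phf1, the remaining Polycomb-like member, rose by 0.33 ± 0.08 with ATRA (adjusted p = 0.0038), with all 3 late arrays above the EtOH range. It stood at 0.13 ± 0.08 with BMS753. Every Phf1 reading with BMS753 and with BMS961 also lay above that range, so this was not particular to late ATRA. Against the EtOH mean, BMS753 at 6 h stood at 0.30 and ATRA at 48 h at 0.12. Jarid2, which ties PRC2 to ubiquitinated H2A and is needed for differentiation of embryonic stem cells, fell by 0.74 ± 0.19 with ATRA (adjusted p = 0.00579) and stood at −0.57 ± 0.19 with BMS753 (adjusted p = 0.0555). Its lowest arrays were at 48 h of ATRA (−1.32 against EtOH) and at 72 h of BMS753 (−1.18). Aebp2 stood at 0.12 ± 0.06 and 0.15 ± 0.06, not called. With BMS753, 0 of the 5 were called by limma and 4 had an unadjusted p under 0.05, where 26.3% of all genes had one. Jarid2 and Mtf2 lost their ATRA call without the 48 h arrays (adjusted p up to 0.0833).

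The PR-DUB complex removes ubiquitin from H2A through Bap1, which works with an ASXL partner. Asxl3 read 6.31, 6.29, 6.45 and 6.32 on the log2 scale in the 4 EtOH arrays, 6.48, 6.37, 7.39, 8.86 and 9.46 at 2, 6, 24, 48 and 72 h of ATRA, and 6.68, 6.44, 6.47, 8.84 and 9.24 at those times of BMS753. Asxl3 was above every EtOH array at all 3 late times of ATRA, and with BMS753 the rise came between 24 and 48 h. Its readings at 48 and 72 h were close in both courses. It rose by 2.23 ± 0.34 with ATRA (4.69-fold, adjusted p = 0.000191) and by 1.84 ± 0.34 with BMS753 (3.59-fold, adjusted p = 0.00283), the largest change of any member in either comparison. Asxl1 fell by 0.33 ± 0.05 with ATRA (adjusted p = 0.000119) and fell by 0.19 ± 0.05 with BMS753 (adjusted p = 0.0136). Asxl2 fell by 0.27 ± 0.10 with ATRA (adjusted p = 0.0403) and stood at −0.29 ± 0.10 with BMS753. Bap1 itself stood at −0.02 ± 0.04 and 0.03 ± 0.04, with 95% intervals of −0.11 to 0.08 and −0.07 to 0.12. Asxl2 lost its ATRA call without EtOH array 2, 3 or 4 and without the 2, 6 or 48 h arrays (adjusted p up to 0.285). Asxl1 lost its BMS753 call without the 48 or 72 h arrays (adjusted p up to 0.0883). Asxl3 lost its BMS753 call without the 48 h arrays (adjusted p up to 0.0538).

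The H3K27 demethylases went opposite ways. Kdm6b read 10.05, 10.16, 10.05 and 10.06 on the log2 scale in the 4 EtOH arrays, 10.33, 10.48, 10.46, 10.41 and 10.51 at 2, 6, 24, 48 and 72 h of ATRA, and 10.30, 10.42, 10.36, 10.18 and 10.22 at those times of BMS753. Kdm6b (JMJD3) was above every EtOH array at all 5 times of ATRA and all 5 of BMS753, and within the ATRA course it was already near its late level at 6 h. It rose early by 0.33 ± 0.06 with ATRA (adjusted p = 0.00846) and stood at 0.28 ± 0.06 early with BMS753 (adjusted p = 0.051). Late it rose by 0.38 ± 0.05 with ATRA (adjusted p = 5.4e-05) and by 0.17 ± 0.05 with BMS753 (adjusted p = 0.0288). Kdm6a (UTX) fell by 0.34 ± 0.08 with ATRA (adjusted p = 0.00339) and fell by 0.28 ± 0.08 with BMS753 (adjusted p = 0.0283). The Trithorax methyltransferases Kmt2a and Kmt2b, which mark active genes on H3K4, were not called. Kmt2a stood at 0.28 ± 0.11 with ATRA (adjusted p = 0.0589) and 0.05 ± 0.11 with BMS753, and Kmt2b at 0.09 ± 0.09 and 0.03 ± 0.09. Of the ATRA arrays of Kmt2a only that at 72 h was above the EtOH range, at 0.73 over the EtOH mean. Kdm6b lost its early ATRA call without the 6 h arrays (adjusted p up to 0.78). Kdm6a lost its BMS753 call without any single EtOH array and without the 2, 6, 48 or 72 h arrays (adjusted p up to 0.181). Kdm6b lost its BMS753 call without EtOH array 1, 3 or 4 and without the 2, 6, 24 or 72 h arrays (adjusted p up to 0.113).

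**Figure D4:**
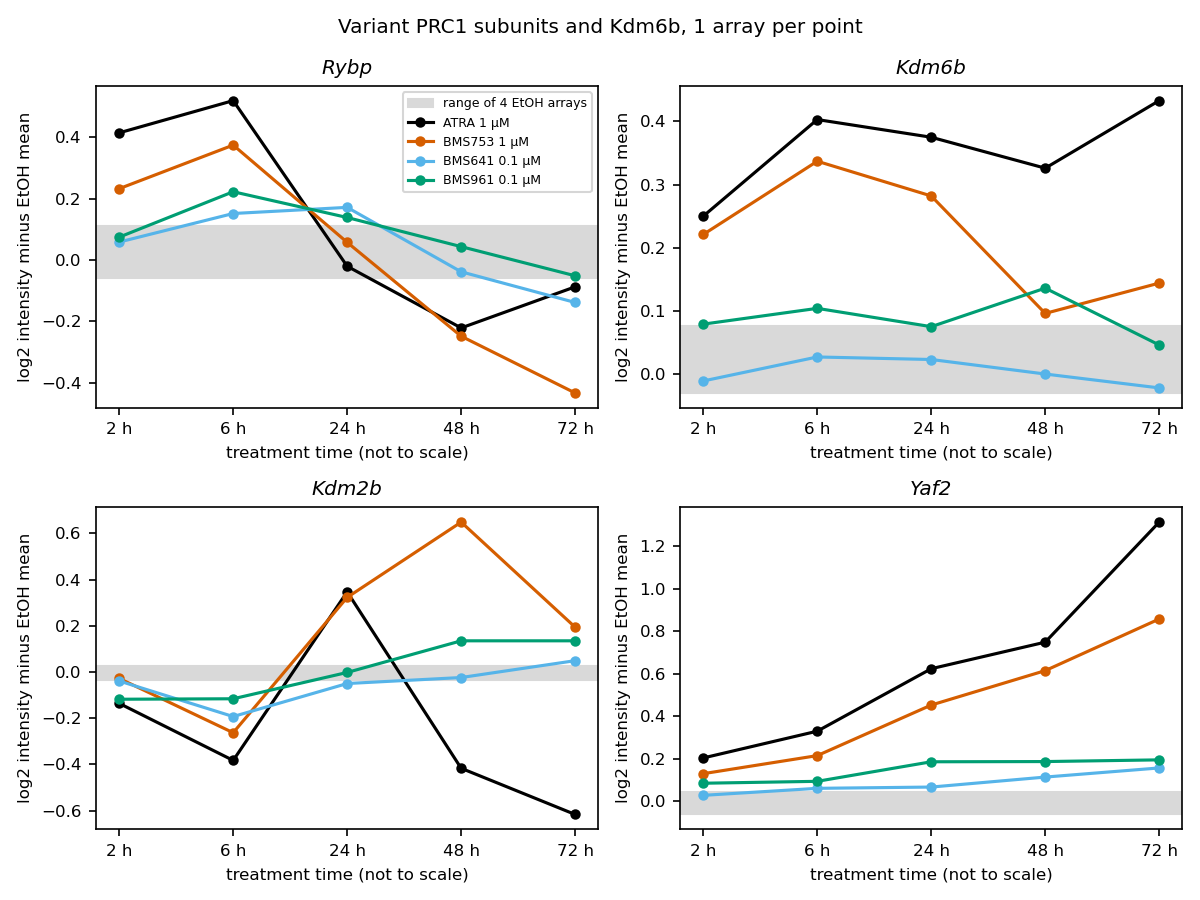
Log2 intensity minus the EtOH mean (y axis) of Rybp, Kdm6b, Kdm2b and Yaf2 at 5 treatment times (x axis, not to scale) under each agent, 1 array per point, with the range of the 4 EtOH arrays in grey. Rybp peaks at 6 h of ATRA and of BMS753 and then declines, Kdm6b stays high with ATRA, Kdm2b parts between the agents at 48 h, and Yaf2 climbs to 72 h.

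Early changes were few. Rybp and Kdm6b, both higher with ATRA, were the 2 of 37 members called after 2 and 6 h of ATRA, against 0.858% of all genes, and 0 remained without the 6 h arrays. With BMS753 limma called 0 members early and 0.306% of all genes, and 3 members (Kdm6b, Phf1 and Rybp) had an unadjusted p under 0.05, where 10.4% of all genes had one. The count of 0 calls was 2 without the 24 h arrays and 2 without the 72 h arrays. In the early comparison of ATRA with BMS753 limma called 0 members and 0 of all genes, and 0 members had an unadjusted p under 0.05 (all genes 9.64%). The early differences of ATRA minus BMS753 ran from −0.20 to 0.19.

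The late phase was tested against the early phase of the same agent, which uses no EtOH array in the difference. With ATRA 12 members were higher late than early and 12 lower, where 31.5% of all genes were called. With BMS753 4 were higher and 6 lower, where 10.8% of all genes were called. In the set without the dimmest genes it was 24 members against 44.7% with ATRA and 12 against 15.5% with BMS753. With only the arrays of the agent in the fit and no time term, 0 members were called with either agent (all genes 0.015% and 0). The count for ATRA was 10 without the 2 h arrays and 11 without the 6 h arrays. That for BMS753 ran from 0 without the 6 h arrays to 21 without the 24 h arrays, with 1, 2 and 5 without the 2, 48 and 72 h arrays. Rybp, the one member whose called early rise did not last, was lower late than early by 0.58 ± 0.07 with ATRA (adjusted p = 9.51e-05) and by 0.51 ± 0.07 with BMS753 (adjusted p = 0.000707, and 0.07 without the 6 h arrays). Kdm6b was not called between the phases, at 0.05 ± 0.06 with ATRA (95% interval −0.07 to 0.18) and −0.11 ± 0.06 with BMS753 (95% interval −0.23 to 0.02). Single times were described by how many members lay at least 1.5-fold from the EtOH mean, with no test. With ATRA it was 0 of 37 at 2 h (all genes 0.612%), 0 at 6 h (2.17%), 4 at 24 h (5.06%), 12 at 48 h (14.3%) and 17 at 72 h (20.8%). The 4 at 24 h of ATRA were Asxl3, Phc2, Yaf2 and Phc1, and at 48 h Bmi1, Cbx2 and Scmh1 joined on the high side and Cbx7, Ezh1, Jarid2, Pcgf5 and Phf19 on the low side. With BMS753 it was 0 at 2 h (0.256%), 0 at 6 h (0.913%), 0 at 24 h (1.51%), 9 at 48 h (7.37%) and 12 at 72 h (12.3%). The 9 were Asxl3, Bmi1, Kdm2b, Phc2, Rbbp7 and Yaf2, higher, and Cbx7, Ezh1 and Phc1, lower. At 72 h Kdm2b and Rbbp7 were no longer among them, and Cbx2, Ring1, Asxl2, Jarid2 and Phf19 were.

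ATRA and BMS753 were given at the same dose, so their late arrays were compared directly. Scmh1 and Kdm6b were higher with ATRA, and Phf19, Kdm2b, Pcgf5 and Eed were lower. These 6 are 16.2% of the members, where 10.4% of all genes were called, and 16.4% of genes in the set without the dimmest, so the share of members was near that background. With only the arrays of ATRA and BMS753 in the fit and no time term, 0 members and 0 of all genes were called. The 48 and 72 h arrays of Scmh1 lay between 9.28 and 9.80 with ATRA and between 8.71 and 8.87 with BMS753, and the difference was 0.58 ± 0.13 (95% interval 0.30 to 0.87, adjusted p = 0.0155). Phf19 differed by −0.71 ± 0.16 (−1.06 to −0.36, adjusted p = 0.0171), and its ATRA array was the lower of the pair at each late time. Kdm2b differed by −0.62 ± 0.16 (−0.96 to −0.27, adjusted p = 0.0278), with 10.07 and 10.05 at 24 h and 9.31 and 10.38 at 48 h for ATRA and BMS753. Pcgf5 differed by −0.58 ± 0.15 (adjusted p = 0.0274), Eed by −0.25 ± 0.07 (adjusted p = 0.0361) and Kdm6b by 0.20 ± 0.05 (adjusted p = 0.026). In the same comparison 3 of 10 pluripotency markers were lower with ATRA, 2 of 8 neuron markers were higher, 1 of 8 neural progenitor markers was higher and 2 were lower, 1 of 8 endoderm markers was higher, 1 of 7 mesoderm markers and 2 of 15 cell cycle genes were lower, and 0 of 8 fibroblast and smooth muscle markers were called. Their part in these differences was not tested. Cbx7, Phc1, Asxl3 and Phc2, with large changes against EtOH, were not called here. The difference was −0.71 ± 0.31 for Cbx7 (95% interval −1.38 to −0.05), −0.34 ± 0.22 for Phc1 (−0.81 to 0.13), 0.39 ± 0.37 for Asxl3 (−0.40 to 1.17) and −0.07 ± 0.22 for Phc2 (−0.53 to 0.40). The count of 6 was 13 without the 24 h arrays, 1 without those of 2 h or of 6 h, 0 without 48 h and 2 without 72 h. Scmh1 lost its ATRA against BMS753 call without the 48 h arrays (adjusted p up to 0.098). Phf19 lost its ATRA against BMS753 call without the 2, 6 or 48 h arrays (adjusted p up to 0.106). Kdm2b, Pcgf5 and Kdm6b lost their ATRA against BMS753 call without the 2, 6, 48 or 72 h arrays (adjusted p up to 0.238). Eed lost its ATRA against BMS753 call without EtOH array 3 or 4 and without the 2, 6, 24, 48 or 72 h arrays (adjusted p up to 0.184).

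**Figure D5:**
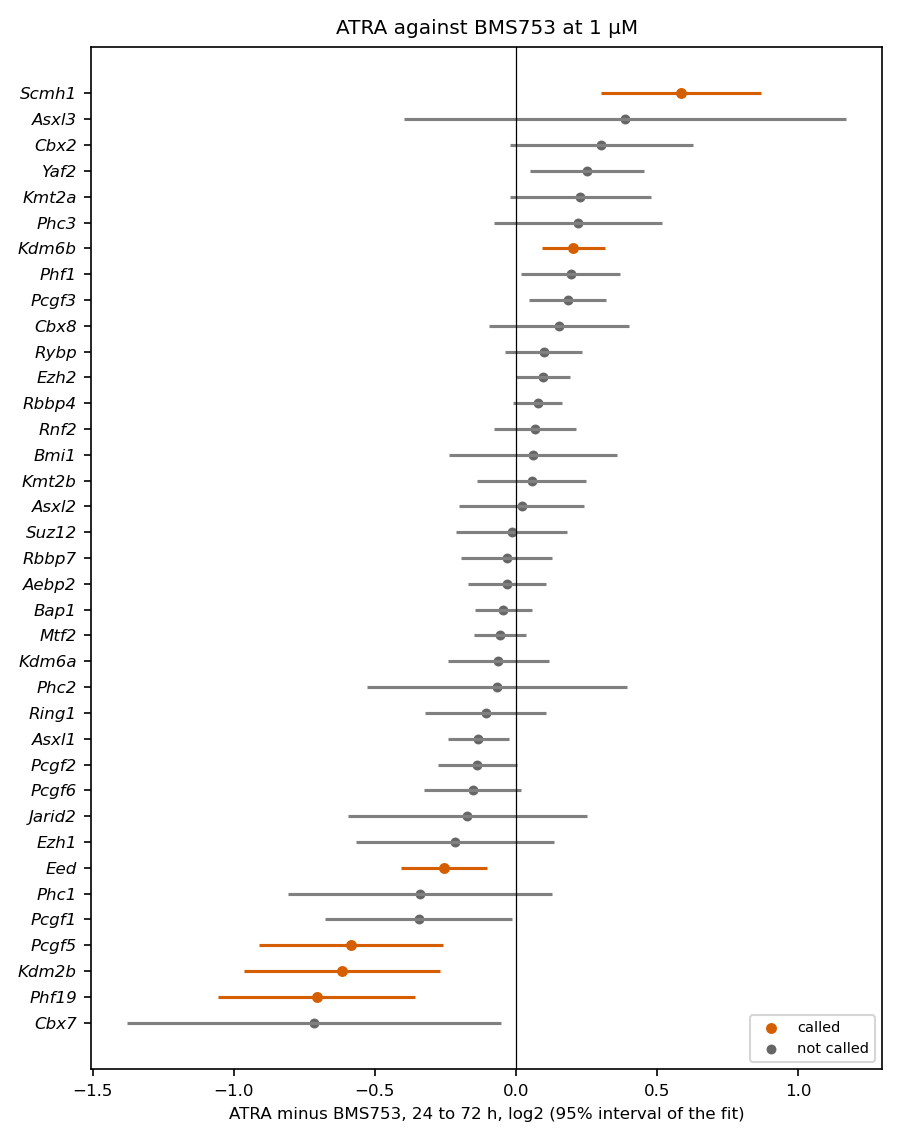
Late difference of ATRA minus BMS753 for each of the 37 members (x axis, log2, with the 95% interval of the fit), both at 1 µM, with called members in colour. Phf19, Kdm2b, Pcgf5 and Eed lie below 0 and Scmh1 and Kdm6b above 0, and the interval of Asxl3 is the widest.

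The agonists given at 0.1 µM left the members close to EtOH. limma called 0 members late with BMS641 (all genes 0) and 0 late with BMS961 (all genes 0.00502%), and at an unadjusted p under 0.05 there were 0 and 1, the latter Phf1 (all genes 3.13% and 3.86%). Early there were 0 with BMS641 (all genes 0) and 0 with BMS961 (all genes 0), and at an unadjusted p under 0.05 there were 0 and 1, the latter Rybp (all genes 2.35% and 2.92%). These results take their error from all 24 arrays, the ATRA and BMS753 courses included. Fitted on only the arrays compared, with no time term, limma called 0 members late with BMS641 (all genes 0.712%). With BMS961 it called 1 member late (all genes 2.34%). The late changes of the 37 members ran from −0.10 to 0.19 with BMS641 and from −0.08 to 0.19 with BMS961, and their median absolute change was 0.02 and 0.03, where that of all genes was 0.04 and 0.05. Yaf2 read 10.03, 10.04, 10.13, 10.13 and 10.14 at 2, 6, 24, 48 and 72 h of BMS961 and 9.97, 10.01, 10.01, 10.06 and 10.10 of BMS641, against 9.88 to 9.99 in EtOH. All 5 BMS961 arrays and 4 of the 5 BMS641 arrays lay above the EtOH range, and the late values were 0.19 ± 0.09 and 0.11 ± 0.09. Phf1 read 7.33, 7.18, 7.25, 7.23 and 7.38 with BMS961 and 7.25, 7.29, 7.30, 7.27 and 7.14 with BMS641, against 7.10 to 7.17 in EtOH, and stood late at 0.17 ± 0.08 and 0.11 ± 0.08. Bmi1 read 7.37, 7.23, 7.33, 7.33 and 7.55 with BMS641, highest at 72 h, and 7.14, 7.38, 7.28, 7.44 and 7.12 with BMS961, with late values of 0.19 ± 0.13 and 0.07 ± 0.13. Phc2 read 8.69, 8.56, 8.66, 8.70 and 8.72 with BMS961 and 8.56, 8.56, 8.59, 8.57 and 8.59 with BMS641, with late values of 0.13 ± 0.20 and 0.02 ± 0.20. Its 3 late BMS961 arrays lay above the EtOH range of 8.55 to 8.59. All 3 late arrays lay beyond the EtOH range in 13.5% of members with BMS961 (all genes 11.9%). With BMS641 this held for 8.11% of members (all genes 9.99%). The 95% interval of Cbx7 was −0.62 to 0.62 with BMS961 and −0.61 to 0.63 with BMS641. Between BMS961 and BMS641 limma called 0 of 37 members late (all genes 0), with 0 at an unadjusted p under 0.05 (all genes 1.8%). Their differences ran from −0.12 to 0.12, and the widest 95% interval, of Asxl3, was −0.77 to 0.79. The doses of these agents and of ATRA and BMS753 differ, so they are not compared.

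Genes of the same pathways outside the 38 were read beside them. Of 24 further Polycomb genes 6 rose and 7 fell late with ATRA (54.2%), and 4 rose and 5 fell with BMS753 (37.5%). Lcor, whose locus encodes a PRC2 partner, rose by 0.92 ± 0.14 with ATRA and Sfmbt1, an MBT-domain protein, by 0.63 ± 0.10. L3mbtl2, a partner of Pcgf6, fell by 0.68 ± 0.08 and Bcor, a partner of Pcgf1 and Kdm2b, fell by 0.63 ± 0.12, and fell by 0.67 ± 0.12 with BMS753. Of 16 genes of the H3K4 methyltransferase complexes 3 rose and 6 fell with ATRA (56.2%), and 1 rose and 3 fell with BMS753 (25.0%). Ncoa6, of the MLL3 and MLL4 complexes, rose by 0.80 ± 0.13, and Kmt2e, an MLL relative, by 0.80 ± 0.16. Dpy30 and Wdr5, core subunits shared by all these complexes, fell by 0.68 ± 0.07 and fell by 0.56 ± 0.05 with ATRA, and fell by 0.42 ± 0.07 and fell by 0.23 ± 0.05 with BMS753. Kmt2c, which encodes MLL3, was the gene of these lists called early, higher by 0.92 ± 0.16 with ATRA (adjusted p = 0.00811), and stood at 0.68 ± 0.16 early with BMS753. Of 9 histone demethylases and H2A deubiquitinases 1 rose and 3 fell with ATRA (44.4%), and 1 rose and 1 fell with BMS753 (22.2%). Kdm1b, an H3K4 demethylase, rose by 0.23 ± 0.05 and by 0.36 ± 0.05 with ATRA and BMS753, and the deubiquitinases Mysm1 and Usp16 fell by 0.31 ± 0.07 and fell by 0.28 ± 0.07 with ATRA. Of 26 SWI/SNF genes, the remodellers that oppose Polycomb, 8 rose and 8 fell with ATRA (61.5%), and 1 rose and 3 fell with BMS753 (15.4%). Smarcd3 rose by 1.26 ± 0.26 and Smarcc2 by 0.91 ± 0.14 with ATRA, and Phf10, a subunit known from progenitor cells, fell by 0.76 ± 0.10 and Dpf1 fell by 0.61 ± 0.07. The shares are to be read against 36.9% and 13.5% of all genes. In the direct comparison of ATRA with BMS753, 4 of the 24, 3 of the 16, 1 of the 9 and 6 of the 26 were called, where 10.4% of all genes were.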

How the data were processed

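Gene expression was read in P19 cells on 24 one-colour Affymetrix Mouse Gene 1.0 ST arrays. The authors deposited log2 values per probe set, made with Affymetrix Expression Console 1.1 per the submitters' processing notes. Background correction, summarization and normalization are not given in the sources used here, and the log2 scale was taken from the values. Of 35556 probe sets, 21789 had 1 gene symbol in the platform annotation, 1621 several and 12146 none. The brightest probe set with 1 symbol stood for a gene, which left 19938 genes. With another summarization, small changes of bright genes could differ in size.

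The values were used as deposited. A limma 3.58.1 model (lmFit, eBayes with a variance trend, R 4.3.3) was fitted to all 24 arrays. It had a mean for EtOH, a mean for each agent early (2 and 6 h) and late (24, 48 and 72 h), and time terms shared by the agents, so that the error holds what the shared terms leave. Tests were two-sided, with Benjamini-Hochberg adjustment within each of the 13 comparisons, and a call needed an adjusted p under 0.05. The scripts were tested on simulated data. Arrays carry no counts, so their number limits the precision. Agents at different doses were not compared. F9 cells were not analysed here.

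The members and all gene lists were chosen with earlier results of these data known. The further lists were other Polycomb genes, H3K4 methyltransferase complexes, demethylases and H2A deubiquitinases, and SWI/SNF, and the marker lists were pluripotent, neural progenitor, neuron, endoderm, mesoderm and cardiac, fibroblast and smooth muscle, and cell cycle. Values in every array are given for the called members with the largest late changes (8 with ATRA, 4 with BMS753, 4 between them) and, of BMS641 and BMS961, the 3 largest each. Rybp and Kdm6b were added as the early calls. Alternatives covered dim genes, normalization, probe sets, the variance model, time terms, the arrays fitted, the fold and leaving out arrays. Promoters and motifs came from RefSeq tables of GRCm38.p6.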

Additional observations from a re-analysis of the deposited data

Results flagged for a closer look

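In 6 members 1 of the 4 EtOH arrays stood farther from the rest than Dixon's 95% critical value for groups of 4 allows. These were Jarid2 in array 2 (12.01), Pcgf2 in array 3 (8.697), Phc2 in array 1 (8.587), Phc3 in array 4 (7.627), Asxl3 in array 3 (6.447) and Kdm6b in array 2 (10.16). Chance gives about 1 in 20 groups, and 37 members were looked at.

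The effects of ATRA and BMS753 differed late, by the test of the difference, for Eed (−0.255), Phf19 (−0.706), Pcgf5 (−0.585), Scmh1 (0.584), Kdm2b (−0.617) and Kdm6b (0.204), on the log2 scale. The late and early effects differed for 24 members with ATRA and 10 with BMS753. Rybp, a subunit of variant PRC1, was among them with −0.577 (ATRA) and −0.511 (BMS753). Pluripotency markers also differed between ATRA and BMS753 late, with 3 of 10 lower with ATRA, and their part in these differences was not tested.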

How the results depend on the processing

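Of the members' changes against the alternatives, 2663 kept their direction and their side of the threshold, 29 that were never called changed sign, 355 lost the call, 85 gained one and 0 called values changed sign. Many alternatives alter only the error, the genes tested or the threshold and leave the change itself as it was. A kept direction was fixed in advance there, so these counts do not measure how stable the directions are. With only the arrays of the groups compared and no time term, called members numbered 10 (ATRA late), 1 (BMS753 late), 1 (BMS961 late), 4 (ATRA early), 2 (BMS753 early), 0 (ATRA against BMS753 late), 0 (ATRA late against early) and 0 (BMS753 late against early). Here each fit has fewer arrays. Of all genes, in the same order, 11.4%, 1.5%, 2.34%, 3.72%, 3.85%, 0, 0.015% and 0 were called. With at least 1.5-fold required, called members numbered 11, 5, 0 (ATRA early), 2 (ATRA against BMS753 late), 10 and 4 (late against early, ATRA and BMS753). The shares of all genes there were 11%, 4.59%, 0.517%, 1.94%, 10.7% and 3.94%. With the error taken from EtOH arrays only, called members numbered 26 (BMS753 late), 1 (BMS961 late), 6 and 5 (ATRA and BMS753 early), 21 (ATRA against BMS753 late) and 22 (BMS753 late against early). Without a time term there were 1 (ATRA early, all genes 0.562%) and 5 (BMS753 late against early, all genes 6.89%). For BMS753 early there was 1 with dim genes left out (all genes 0.406%) and 2 with the mean of probe sets. At 2-fold in place of 1.5-fold, 1, 6 and 8 members passed at 24, 48 and 72 h of ATRA, and 4 and 6 at 48 and 72 h of BMS753. The counts with the EtOH error, the mean of probe sets, 2-fold and, here and above, with arrays left out are of members only. No share of all genes is given beside them, so they are not read against that background. Where no cause is named, the cause was not tested.

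Leaving out each EtOH array or the arrays of each time gave 19 to 30 (ATRA late), 4 to 24 (BMS753 late), 0 to 3 (ATRA early), 0 to 2 (BMS753 early), 0 to 13 (ATRA against BMS753 late), 10 to 27 (ATRA late against early), 0 to 21 (BMS753 late against early) and 8 to 10 (BMS753 at 48 h). Under every such omission, 18 of 25 calls were kept late with ATRA and 3 of 16 with BMS753. Each agent has 1 array per time, so a single time cannot be tested. Replicate numbers stand only on the EtOH arrays and pair no samples. The agents' arrays match by time, which the model holds as shared time terms. Without these the count for ATRA against BMS753 late was 6 (all genes 8.2%).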
